A study of Mus musculus with 6 samples.

Results

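The immunoglobulin heavy chain constant genes encode the part of an antibody heavy chain that sets its class. All 8 of them, Ighm, Ighd, Ighg3, Ighg1, Ighg2b, Ighg2c, Ighe and Igha, were found by gene symbol among the 22298 genes in each of 6 RNA sequencing libraries. Ighm and Ighd are the unswitched isotypes and the other 6 the class-switched ones. The libraries came from thymocytes of untreated C57BL/6 mice, 3 from Toxf/f controls and 3 from Toxf/fCd4Cre mice. Cd4 regulatory sequences drive the Cre recombinase of the latter. All of the mice carried the floxed Tox alleles. Both genotypes had 1 library from mice of 4 weeks (replicate 1) and 2 from mice of 3 weeks (replicates 2 and 3). Since Cd4Cre was never present without the floxed alleles, an effect of the transgene and one of losing Tox cannot be told apart. The labels do not say that replicates are separate mice, so p-values measure only the spread between these samples, which may be technical.

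A heavy chain messenger RNA joins a rearranged variable segment to a constant gene. B cells first use Ighm and, by alternative RNA processing, Ighd. Class switch recombination moves the variable segment next to a gamma, epsilon or alpha constant gene further along the locus. Constant genes are also transcribed without a variable segment, as germline transcripts, and such transcripts of Ighm are known in developing T cells. Counts over a constant gene cannot tell germline transcripts from those of a functional heavy chain.

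The libraries held 14550593 to 16099023 estimated counts. By their titles the samples are DN (double-negative) thymocytes, while the labels' protocols name a DN2 sort. Transcripts of all 12 thymocyte identity genes were present, at a summed 13860 to 15310 CPM (counts scaled to library size). Cd4, Cd8a and Cd8b1 are part of this list, and double-negative cells are named for lacking their products. Control means were 918 (Cd4), 1710 (Cd8a) and 1240 (Cd8b1) CPM. Means of the Cd4Cre group were 941, 2030 and 1390 CPM, in the same order. The sum therefore does not show that the samples were double-negative, and their purity was not tested. The DN2 markers Kit, Cd44 and Il2ra summed to only 146.5 to 176.3 CPM. Markers of B cells summed to 155.2 to 172.9 CPM in the controls and 101.2 to 141.6 CPM in Cd4Cre, and no B cell marker was at 0 in any library. Tox, the targeted gene, stood at 99.2 to 109 CPM in the controls and 10.2 to 15.1 CPM in Cd4Cre.

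On mouse chromosome 12 the 8 genes lie on the minus strand, in the order of transcription Ighm, Ighd, Ighg3, Ighg1, Ighg2b, Ighg2c, Ighe and Igha (GENCODE M21). The genome build of the deposited tables is not given in the sources used here, so no coordinates are given. The gamma genes are similar in sequence, which bears on how reads were assigned to them. Over the 291 bases of their first coding exon, Ighg2b was identical to Ighg1 at 88.3%, to Ighg2c at 87.6% and to Ighg3 at 78.7% of positions. The first 60 bases of that exon are shown, with capitals at the 22 positions where the 4 gamma genes are not all the same.
Ighg3: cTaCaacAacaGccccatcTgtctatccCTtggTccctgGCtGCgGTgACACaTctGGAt
Ighg1: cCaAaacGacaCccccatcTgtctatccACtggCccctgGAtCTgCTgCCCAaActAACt
Ighg2b: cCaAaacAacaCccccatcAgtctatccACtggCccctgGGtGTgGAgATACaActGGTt
Ighg2c: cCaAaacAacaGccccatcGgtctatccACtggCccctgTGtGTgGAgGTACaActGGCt

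The same stretch of Ighm and Ighe is shown because these genes had the most counts and no counts in Cd4Cre, respectively.
Ighm: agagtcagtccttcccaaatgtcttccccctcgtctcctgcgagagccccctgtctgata
Ighe: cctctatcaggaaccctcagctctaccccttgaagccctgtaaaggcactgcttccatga
Of all 50-base words in the annotated transcripts of a gene, none of Ighm, Ighd, Ighe or Igha occurred in a transcript of any other gene. For the gamma genes, 5.49% of the words of Ighg2c, 4.15% of Ighg2b, 1.58% of Ighg3 and 0.39% of Ighg1 occurred in another gamma gene. Counts of the single gamma isotypes are therefore uncertain by reads that fit more than 1 of them, whereas counts of Ighm, Ighe and Igha are not affected in this way.

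The class-switched isotypes were nearly absent from the Cd4Cre libraries, while the unswitched isotypes were not lower there. All 6 switched genes fell, and neither Ighm nor Ighd passed the test. The test was the edgeR quasi-likelihood test of Cd4Cre minus control with Benjamini-Hochberg adjustment over all 13934 genes tested and a threshold of 0.05, in which 4.11% of genes passed, 2.96% as lower and 1.15% as higher. All 8 genes were among those tested. The switched genes had at most 8 counts in any Cd4Cre library and passed the low-count filter only through the controls. A call as higher was thus hardly open to them. With no filter on low counts, all 6 also passed as lower. No gene of the 8 overlapped between the groups in CPM, which 22% of all tested genes also met. The median log2 fold change of the switched genes was -6.45, also with Ighe set to its bound, against 0.01 over all genes. The constant genes made up 0.0596% to 0.0624% of all counts in the controls and 0.0561% to 0.064% in Cd4Cre, most of them Ighm counts.

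**Figure D1:**
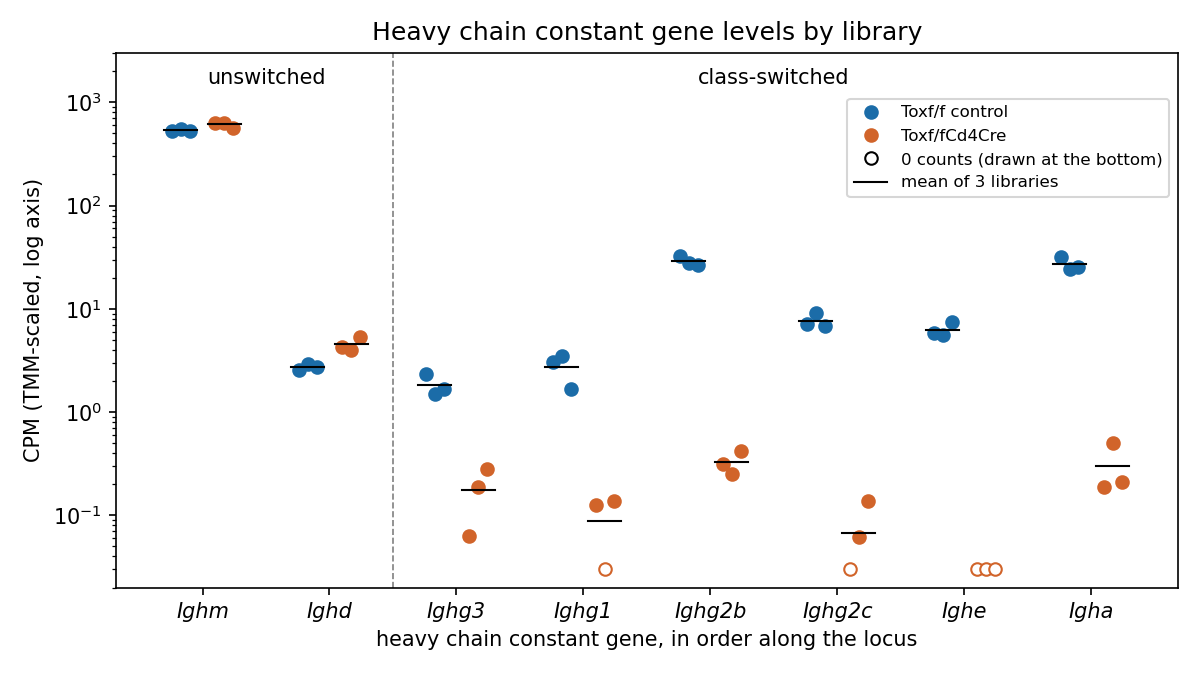
Level of each heavy chain constant gene in CPM on a log axis, 1 point per library and a line at the mean of 3 libraries; open points at the bottom are libraries with 0 counts. Ighm and Ighd lie slightly higher in Cd4Cre (orange) than in the controls (blue), and the 6 switched isotypes lie far lower.

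Ighm (ENSMUSG00000076617), the mu chain gene of IgM, was by far the most abundant isotype in both genotypes. It had 529.1, 545.3 and 528.2 CPM in control replicates 1 to 3 and 633.1, 633.6 and 562.3 CPM in Cd4Cre replicates 1 to 3. The Cd4Cre libraries were all higher, with replicate 3 closest to the controls. The mean was 534.2 ± 9.63 CPM in controls and 609.7 ± 41 CPM in Cd4Cre (SD, n = 3). Its log2 fold change was 0.19 (SE 0.07, edgeR adjusted p = 0.206). Its unadjusted 95% interval, 0.03 to 0.35, spans a level between 1.02 and 1.27 times that of the controls. Without Cd4Cre replicate 3, Ighm passed the threshold (log2 fold change 0.25, adjusted p = 0.0341).

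On the FPKM scale, which is per length, Ighm stood at 343 ± 7.52 in controls and 387 ± 29.5 in Cd4Cre. That placed it between rank 182 and 188 of the 22298 genes in the controls and between 164 and 184 in Cd4Cre. For comparison, Cd4 had 289 to 302 FPKM and Cd8a 546 to 570 FPKM in the controls. Igkc, the kappa light chain constant gene, had 111 to 125 FPKM in the controls and 14.9 to 15.6 FPKM in Cd4Cre.

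Ighd (ENSMUSG00000104213), the delta chain gene of IgD, was scarce. Its counts were 40, 43 and 41 in the controls and 68, 64 and 77 in Cd4Cre. All Cd4Cre libraries were higher, and the mean CPM was 2.75 ± 0.183 and 4.55 ± 0.717 (SD, n = 3). The log2 fold change of 0.72 (SE 0.20) missed the threshold (edgeR adjusted p = 0.0703). On log2(FPKM + 1) values it passed in limma with a log2 change of 0.54 on that scale (adjusted p = 0.045).

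Ighg2b (ENSMUSG00000076613) and Igha (ENSMUSG00000095079), the genes of IgG2b and of IgA, the mucosal antibody class, led the switched isotypes. Ighg2b had 505, 406 and 395 counts in the controls and 5, 4 and 6 in Cd4Cre. Igha had 494, 356 and 384 counts in the controls and 3, 8 and 3 in Cd4Cre. Every control library was far above every Cd4Cre library for both genes. The mean of Ighg2b was 88-fold and that of Igha 91-fold higher in the controls in CPM. The log2 fold changes were -6.44 (SE 0.20, edgeR adjusted p = 1.09e-08) and -6.45 (SE 0.25, edgeR adjusted p = 3.55e-08). Without Cd4Cre replicate 2 that of Igha was -7.04.

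Ighe (ENSMUSG00000087642), the gene of IgE, the class bound by mast cells and basophils, was counted only in the controls. It had 91, 82 and 111 counts there and 0 in each Cd4Cre library. With the Cd4Cre group set to a floor of 3 counts in total, Ighe was at least 96.7-fold lower in Cd4Cre (edgeR adjusted p = 1.44e-05). Ighg2c (ENSMUSG00000076612), the gene that C57BL/6 mice carry in place of Ighg2a, had 111, 132 and 102 counts in controls and 0, 1 and 2 in Cd4Cre. Its Cd4Cre level was 0.851% of the control level, with a 95% counting interval of 0.175% to 2.51% (edgeR adjusted p = 3.02e-06). The interval does not cover the spread between libraries, and without Cd4Cre replicate 3 the log2 fold change of Ighg2c was -7.60 against -6.71 with it.

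Ighg1 (ENSMUSG00000076614) and Ighg3 (ENSMUSG00000076615), the genes of IgG1 and IgG3, were the scarcest switched isotypes in the controls. Ighg1 had 48, 51 and 25 counts in the controls and 2, 0 and 2 in Cd4Cre. Ighg3 had 36, 22 and 25 counts in the controls and 1, 3 and 4 in Cd4Cre. Both were lower in every Cd4Cre library. Ighg1 had a log2 fold change of -4.86 (SE 0.58, edgeR adjusted p = 0.000448), and Ighg3 one of -3.34 (SE 0.46, edgeR adjusted p = 0.00146). Ighg3 was the switched isotype with the smallest fitted change, and 8 counts remained of it in the whole Cd4Cre group against 83 in the controls. In the 3-week libraries alone its adjusted p was 0.0507 (log2 fold change -2.74), and the other 5 switched genes passed there. Whether fewer cells or less RNA per cell lay behind these levels cannot be told apart in bulk libraries.

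**Figure D2:**
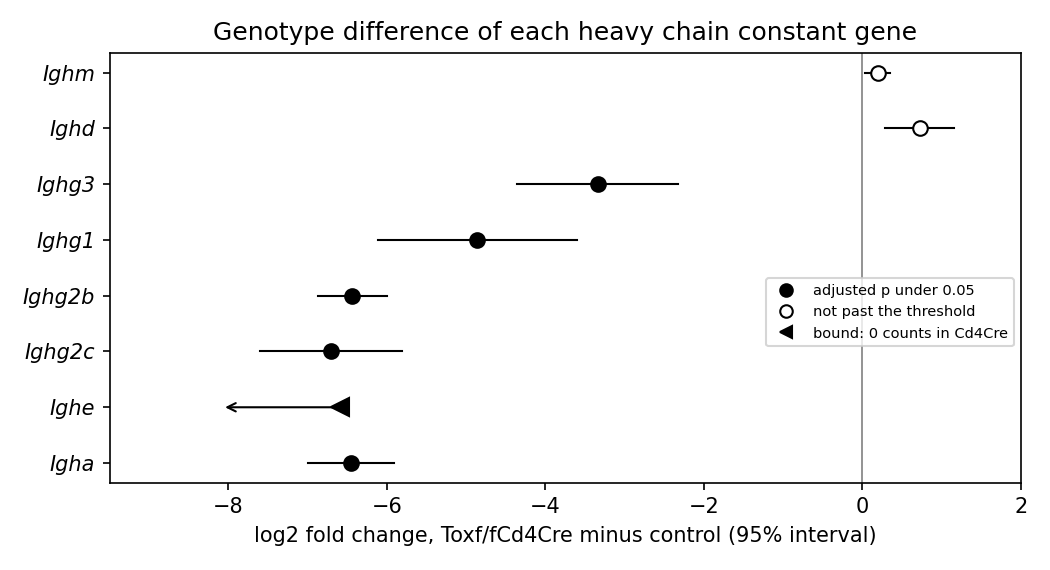
Log2 fold change of each constant gene, Cd4Cre minus control, with its 95% interval from the edgeR fit; filled points passed the threshold, and the triangle marks the bound for Ighe, which had 0 counts in Cd4Cre. Ighm and Ighd lie to the right of 0, at 0.19 and 0.72, and the switched genes between -3.34 and -6.71.

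Per length, the order of the isotypes in the controls was Ighm, Igha, Ighg2b, Ighg2c, Ighe, Ighg1, Ighd and Ighg3. Mean FPKM values below Ighm were 20.65 ± 2.49 for Igha, 19.99 ± 1.28 for Ighg2b, 6.76 ± 1.08 for Ighg2c and 4.58 ± 0.664 for Ighe (SD, n = 3). Ighg1, Ighd and Ighg3 followed at 1.77 ± 0.986, 1.60 ± 0.0907 and 1.09 ± 0.211 FPKM. Igha and Ighg2b overlapped between libraries, as did Ighg1 with its neighbour Ighd. In Cd4Cre the order was Ighm, Ighd at 2.82 ± 0.48 FPKM, and then the switched genes, each at a mean of 0.213 FPKM or less. Ighd thus moved from the next-to-last place in the controls to the place behind Ighm.

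Relative counts within a library do not depend on how libraries are scaled. Switched isotypes took 13.5%, 11.6% and 11.5% of the constant gene counts in control replicates 1 to 3. In Cd4Cre they took 0.109% (95% Wilson interval 0.0609% to 0.195%), 0.156% (0.0961% to 0.254%) and 0.208% (0.13% to 0.333%). The widest of these intervals ends far below the lowest control. These intervals and the floor treat counts as independent and leave out the spread between libraries. The reads carried no molecular identifiers, so the counting error of molecules may be larger still. Set against Ighm, the 6 switched genes summed to 14 ± 1.44 counts per 100 Ighm counts in the controls and 0.159 ± 0.0502 in Cd4Cre (SD, n = 3).

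Each single isotype was also set against Ighm. Ighg2b stood at 54 ± 6.42 counts per 1000 Ighm counts in the controls and 0.545 ± 0.179 in Cd4Cre, and Igha at 51 ± 8.06 and 0.486 ± 0.263. Ighe stood at 11.8 ± 1.96 in the controls and at 0 in every Cd4Cre library. Ighd was higher in Cd4Cre, with 4.86, 5.39 and 5.16 in the controls and 6.8, 6.3 and 9.53 counts per 1000 Ighm counts in Cd4Cre. In none of the 7 ratios did the groups overlap. The share of all genes without overlap in their ratio to Ighm was not computed, and Ighm itself did not overlap between the groups. An exact two-sided permutation test gave p = 0.1 for each ratio (0.1 after adjustment over the 7), the smallest value that 3 against 3 libraries allow, so no ratio could pass 0.05.

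**Figure D3:**
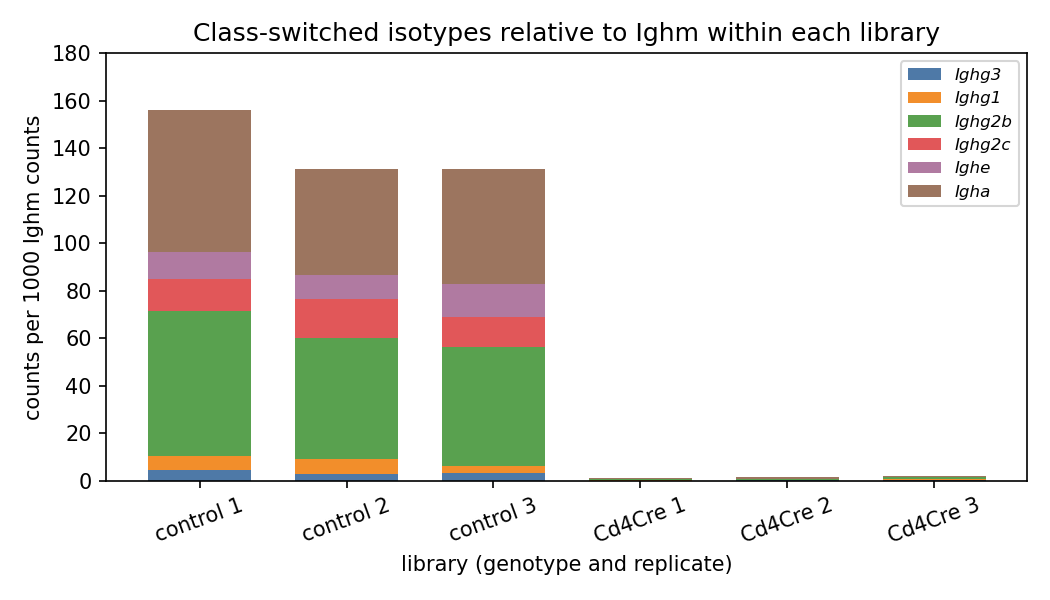
Counts of the 6 class-switched isotypes per 1000 Ighm counts in each library, stacked by isotype on a linear axis from 0. The control bars consist mostly of Ighg2b and Igha, and the Cd4Cre bars are barely visible, since their sum was 0.159 counts per 100 Ighm counts.

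Among the switched counts of the controls, Ighg2b took 38.6% ± 0.698 and Igha 36.4% ± 2.29 (SD, n = 3). Ighg2c took 10.3% ± 2.03, Ighe 8.52% ± 1.89, Ighg1 3.67% ± 1.23 and Ighg3 2.43% ± 0.353. The mix of isotypes was thus alike in the 3 control libraries, with Ighg1 the most variable relative to its share. The Cd4Cre group held only 44 switched counts in all, of which 15 were Ighg2b, 14 Igha and 8 Ighg3. Ighg3 took 18.2% of these 44 counts (95% Wilson interval 9.51% to 32%), above its share in each control library (2.1% to 2.8%). Ighe took 0 of 44, with a Wilson upper limit of 8.03%. Its share was 7.08%, 7.82% and 10.7% in control replicates 1 to 3, so at this depth a share as in the first 2 of them could have gone uncounted.

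Ighm transcripts end either in the secreted or in the membrane-anchored form, by use of different last exons. The deposited count and FPKM of a gene together give its mean transcript length in the authors' scaling, a calculation added after the values had been seen. Lengths of genes with 1 annotated transcript matched GENCODE M21 within 1% for 97.2% to 97.9% of 516 to 554 such genes per library. Between the 4-exon transcript of Ighm, the secreted form of 1493 bases, and its 6-exon membrane form of 1698 bases, this placed 33.6%, 33.9% and 32.1% of its FPKM on the longer form in the controls. In Cd4Cre the share was 35.5%, 36.7% and 37.5%, higher in each library (33.2% ± 0.96 and 36.6% ± 1.01, SD, n = 3). The exact two-sided permutation p of 0.1 was the smallest possible.

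The same calculation was made for the switched genes of the controls. The share of the longer form was 5.8% to 8.1% for Ighe, 13.1% to 18.6% for Igha, 17.8% to 30.6% for Ighg2b and 16% to 27.7% for Ighg2c. For Ighg3, on 22 to 36 counts, it was 51.9%, 43.5% and 39.1% in control replicates 1 to 3. Ighg1, on 25 to 51 counts, varied from 20.5% to 98.7% and gives no usable value. Ighd, in contrast, lay at 75.2% to 99.9% for its longer form in the controls and 68.3% to 92.3% in Cd4Cre, where the groups overlapped. In Cd4Cre the switched genes had too few counts for the calculation. How the authors' program divided reads between forms was not stated, and this was not tested.

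Variable segment counts of the heavy chain locus were lower in every Cd4Cre library than in any control. Summed over 115 Ighv genes, counts were 148, 159 and 123 in the controls and 18, 19 and 11 in Cd4Cre. Set against Ighm, these were 1.78 ± 0.222 Ighv counts per 100 Ighm counts in the controls and 0.168 ± 0.0275 in Cd4Cre, 10.6-fold apart by group mean (SD, n = 3, exact two-sided permutation p = 0.1, the smallest possible). The kappa light chain had 43.6 ± 5.14 Igkv counts per 100 Igkc counts in the controls and 31 ± 1.33 in Cd4Cre, 1.41-fold apart (exact permutation p = 0.1). Even in the controls, the ratio of Ighv to Ighm counts was lower than that of Igkv to Igkc counts. These ratios were not corrected for gene length, and Ighv counts may also come from switched heavy chains. In Cd4Cre the ratio of Ighv to switched counts was 64.7 to 164 per 100, against 11.5 to 15.2 in the controls.

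**Figure D4:**
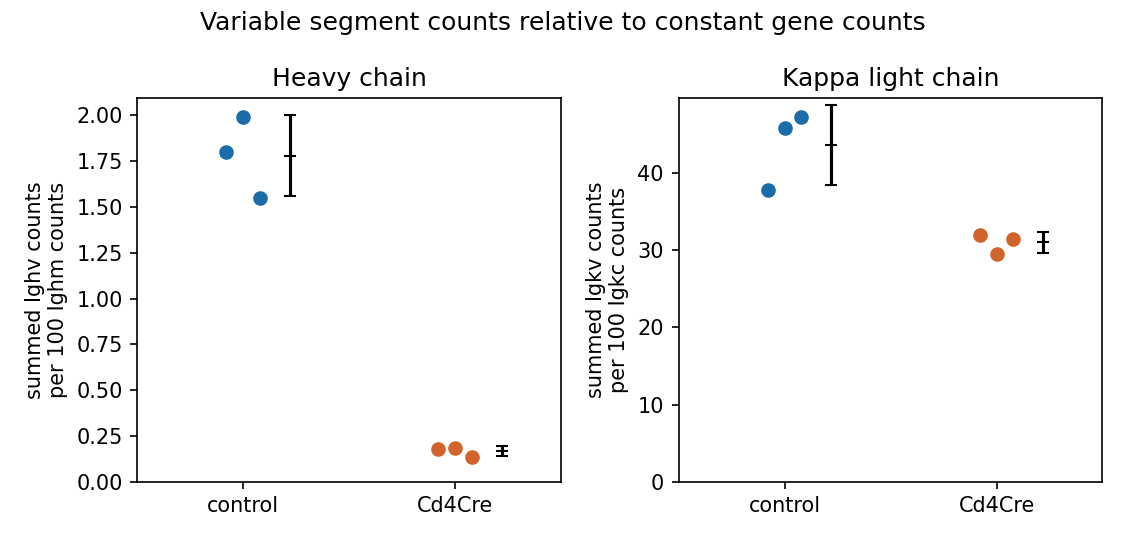
Summed variable segment counts per 100 counts of the constant gene for the heavy chain (Ighv per Ighm, left) and the kappa light chain (Igkv per Igkc, right), 1 point per library, with mean and SD beside them on axes from 0. The heavy chain ratio is 10.6-fold lower in Cd4Cre and the kappa ratio 1.41-fold lower.

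The Ighv counts were spread over many genes, with 49 to 54 of 115 counted in a control library and 7 to 15 in a Cd4Cre library. Ighv5-4 was the only Ighv gene abundant enough to be tested, and it fell (33 counts in the controls, 2 in Cd4Cre, edgeR adjusted p = 0.0155). The diversity and joining segments (17 and 4 genes) were listed at 0 in every library. All 7 tested Igkv genes and Iglv1, the 1 tested Iglv gene, fell as well. Ighv5-4 had 12, 11 and 10 counts in the controls and 0, 2 and 0 in Cd4Cre. It thus passed the low-count filter only through the controls. Summed over 100 Igkv genes, counts were 38 to 40 in a Cd4Cre library, so a tested Igkv gene could hardly have risen. The direction of these segment calls was largely set by the filter.

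Light chain constant genes, whose products pair with any heavy chain class, were lower as well. Of 5 listed, 4 were tested, 3 fell and 1 did not pass (median log2 fold change -2.61, against 0.01 over all genes). Igkc, the kappa constant gene, had 988, 969 and 896 counts in the controls and 125, 129 and 121 in Cd4Cre (log2 fold change -2.96, SE 0.09, edgeR adjusted p = 1.09e-08). The counts within each group were close together. Of the lambda constant genes, Iglc1 fell by 2.87 and Iglc2 by 2.35 (log2), and Iglc3 was at 3.13 and 1.54 CPM without passing. The log2 fold change of Iglc1 was -3.80 without Cd4Cre replicate 2, and in the 3-week libraries alone Iglc1 did not pass (edgeR adjusted p = 0.103). In the controls, switched heavy chain counts were 118 ± 11 per 100 Igkc counts, and in Cd4Cre 11.8 ± 2.68 (SD, n = 3).

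B cell markers did not move in 1 direction. Of 16 tested, 5 fell, 1 rose and 10 did not pass, with a median log2 fold change of -0.36 (0.01 over all genes). The number that fell was 3 without control replicate 1, without control replicate 2 or without Cd4Cre replicate 1, and in the 3-week libraries alone. Fcer2a, the low-affinity IgE receptor CD23, fell most (163, 148 and 138 counts in the controls and 27, 23 and 18 in Cd4Cre, log2 fold change -2.75). Ms4a1, which encodes CD20, and the inhibitory receptor gene Cd72 fell by 1.67 and 0.81 in log2 fold change. Blk, a Src family kinase gene that gamma-delta T cells also express, rose from 5.51 to 11.4 CPM and did not pass in the 3-week libraries alone (edgeR adjusted p = 0.0776).

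Cd79a and Cd79b, the signalling chains that accompany membrane immunoglobulin, did not pass in the edgeR test without a replicate block. Cd79a was at 296, 247 and 193 counts in the controls and 184, 151 and 46 in Cd4Cre. Without Cd4Cre replicate 3, Cd79a fell (log2 fold change -0.63, edgeR adjusted p = 0.039). Cd79b was at 366, 337 and 375 counts in the controls and 452, 408 and 362 in Cd4Cre. Cd79a and Pax5 were both lowest in Cd4Cre replicate 3. The switched counts were 11, 16 and 17 in Cd4Cre replicates 1 to 3, too few to rank these libraries. Per 100 Cd79a counts, switched counts were 425 to 540 in the controls and 5.98 to 37 in Cd4Cre, with no overlap. Ighm stood at 3380 ± 678 counts per 100 Cd79a counts in the controls and 9910 ± 6660 in Cd4Cre (SD, n = 3), with the highest value (17600) in Cd4Cre replicate 3. The part of B cell content in the fall of the switched isotypes was not tested.

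**Figure D5:**
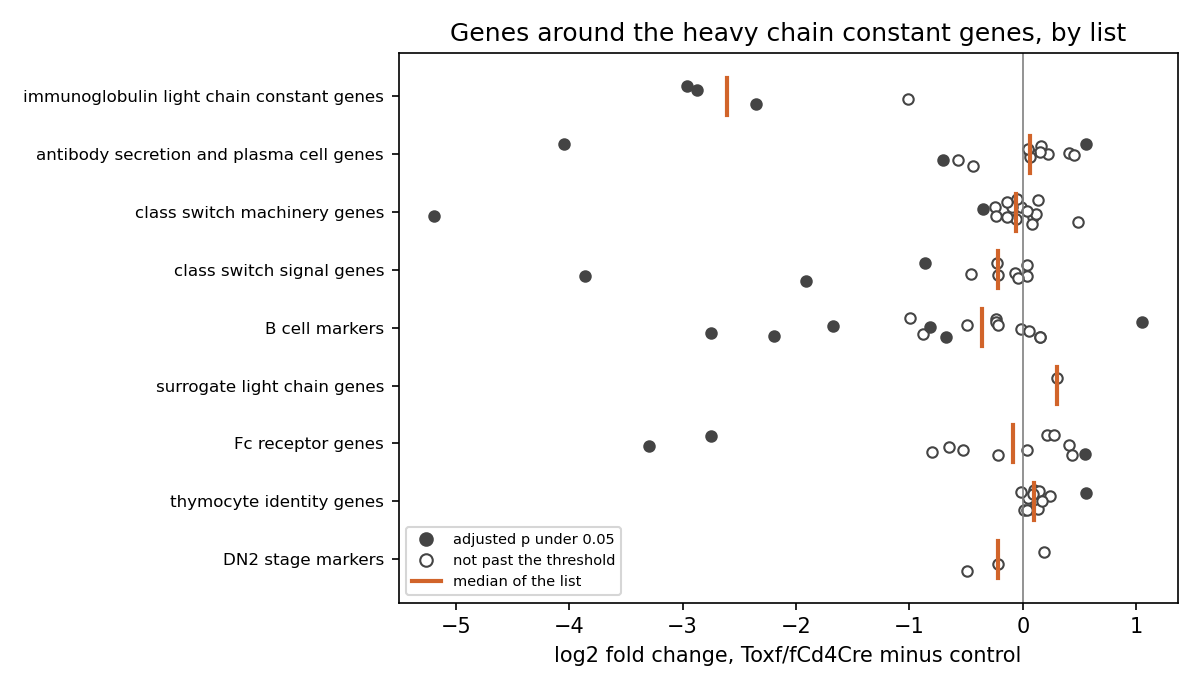
Log2 fold change, Cd4Cre minus control, of every tested gene in 9 lists, 1 point per gene, filled where the adjusted p was under 0.05, with an orange line at the median of the list. Most genes of each list lie near 0 apart from the light chain constant genes, and single genes such as Jchain (-4.05) and Il21 (-3.86) lie far to the left.

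Among 15 genes of antibody secretion and plasma cells, 13 were tested, of which 2 fell, 1 rose and 10 did not pass (median log2 fold change 0.07). Jchain, whose product joins units of polymeric IgM and IgA, had 232, 243 and 261 counts in the controls and 17, 6 and 22 in Cd4Cre (log2 fold change -4.05, SE 0.27, edgeR adjusted p = 8.16e-06). The groups were far apart. Irf4, a factor of plasma cells and activated lymphocytes, fell by 0.70 on the log2 scale and did not pass in the 3-week libraries alone (edgeR adjusted p = 0.156). Sdc1, the plasma cell surface proteoglycan CD138 that epithelium also makes, rose by 0.56, a call that ended without control replicate 1, control replicate 3 or Cd4Cre replicate 1 (log2 fold changes 0.58, 0.49 and 0.54), in the 3-week libraries alone and with limma on FPKM. Xbp1, Prdm1 and Mzb1, further plasma cell genes, had log2 fold changes of 0.22, 0.16 and 0.41 and did not pass.

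Of 16 class switch machinery genes, 2 fell and 14 did not pass (median log2 fold change -0.06). Atm, a DNA break kinase, fell by 0.35, a call that ended when any single control or Cd4Cre replicate 1 was left out (-0.36 to -0.28), in the 3-week libraries alone and with limma on FPKM. Repair genes that most dividing cells use, such as Ung, Msh6 and Exo1, had log2 fold changes between -0.06 and 0.09.

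Signals that start and direct switching were tested for 10 of 13 genes, of which 3 fell and 7 did not pass (median log2 fold change -0.22). Cd40lg, the T cell ligand of CD40, had 152, 119 and 135 counts in the controls and 39, 43 and 28 in Cd4Cre (log2 fold change -1.91, edgeR adjusted p = 8.11e-05). Cd40, its receptor on B cells, epithelium and dendritic cells, fell by 0.86. Il21, a cytokine of helper T cells, had 62 counts in the controls and 4 in Cd4Cre (log2 fold change -3.86, edgeR adjusted p = 0.00298). Il4, the cytokine that directs switching to Ighe and Ighg1, had 21 and 8 counts over the groups and was too scarce to be tested. In the 3-week libraries alone, 1 of these genes passed.

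Fc receptor genes, whose products bind the constant regions, were tested for 12 of 14, of which 2 fell, 1 rose and 9 did not pass (median log2 fold change -0.09). Besides Fcer2a, Fcrl5, which belongs to the Fc receptor-like family, fell from 3.26 to 0.326 CPM (log2 fold change -3.30). Fcer1g, the signalling chain of several activating Fc receptors, rose by 0.55, a call that ended without control replicate 2 (0.55, adjusted p = 0.0518) and in the 3-week libraries alone (0.63, adjusted p = 0.104). The inhibitory receptor Fcgr2b, the IgM receptor Fcmr and the neonatal receptor Fcgrt had log2 fold changes of -0.53, -0.81 and 0.43 and did not pass.

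Surrogate light chain genes, which pair with the mu chain in precursor B cells, were nearly absent, and 1 of 3 was tested. Igll1 had 3, 2 and 2 counts in the controls and 25, 30 and 4 in Cd4Cre, with Cd4Cre replicate 3 again apart from the other two. Vpreb1 had a log2 fold change of 0.30 (edgeR adjusted p = 0.83). Of 12 thymocyte identity genes, Ptcra, which encodes the alpha chain of the pre-TCR, rose (log2 fold change 0.56) and 11 did not pass, among them Cd3e, Lck and Rag1 (0.14, 0.14 and 0.09). In the 3-week libraries alone Ptcra did not pass (edgeR adjusted p = 0.0849). Of the 3 DN2 stage markers none passed the edgeR test with all libraries kept. In the edgeR test without Cd4Cre replicate 2, 1 marker passed as lower, as did 1 in the DESeq2 test.

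The genes whose pattern over the 6 libraries was most like that of the summed switched isotypes were sought among 12192 other genes with a mean of at least 2 CPM. By Pearson correlation of log2 CPM, given as a description since the libraries fall into 2 genotypes, they were Pla2g2d, Igkc, Cytip, Dsg1a and Arhgap20, with r between 0.9974 and 0.9992. All 5 were lower in Cd4Cre, by a log2 fold change of -3.77 for Pla2g2d, a secreted phospholipase of dendritic cells, and -0.75 for Cytip, a lymphocyte adhesion regulator. For Ighm they were Zfp324, Epn1, Nfyc, Oxa1l and Slco2b1 (r 0.9897 to 0.994). Their log2 fold changes lay between 0.14 and 0.48, and none passed with all libraries kept and the low-count filter on in edgeR. Without Cd4Cre replicate 3, Epn1 and Slco2b1 passed (log2 fold changes 0.28 and 0.62). Since Ighm was higher and the switched isotypes were lower in every Cd4Cre library, their nearest genes could hardly have been the same.

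Beyond Igha, the nearest protein-coding genes on the 3′ side of the locus in GENCODE M21 are Tmem121, Tedc1, Crip1, Crip2 and Mta1. They were looked up after the other values had been seen. Crip2 rose (log2 fold change 0.50, SE 0.11, edgeR adjusted p = 0.0232), and the other 4 had log2 fold changes between -0.14 and 0.19 and did not pass. None of the 5 neighbours was past the threshold as lower. Of all tested genes only 2.96% were, so finding none among 5 says little about the region.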

How the data were processed

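Each of the 6 libraries came with 2 deposited values per gene. The file headers name one a count, and as 9.27% to 9.87% of its values in a library were not whole, these deposited values were treated as unscaled estimated counts. The other is an FPKM value per the file headers, computed by the authors per gene length and depth. Use of fastp 0.18.0, HISAT2 and StringTie 1.3.1 is recorded per the submitters' processing notes. The sources used here give no genome build, annotation or strand use.

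Counts were rounded and tested in R 4.3.3 with edgeR 4.0.16 (filterByExpr, minimum count 10 and minimum total 15, TMM scaling, quasi-likelihood test, two-sided). Some genes passed the filter through the controls alone, among them the switched isotypes, Ighv5-4, Iglc1, Il21 and Fcrl5. For these a call as higher was hardly possible. CPM values are TMM-scaled. The test was checked on simulated data. Alternatives used limma 3.58.1 and DESeq2 1.42.0. Ratios were compared with exact permutation tests (scipy 1.17.1).

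The members and lists were chosen with earlier results of these data known. Named genes were all members, fixed genes (among them Igkc, Jchain, Cd79a, Cd79b, Ms4a1 and Tox), up to 4 genes per list with the smallest p among those that passed, and the 5 genes most like each pattern. Any other gene was named after its values were seen. Some genes that the rule names are counted in their lists and not reported singly here. Every gene had a symbol, and all 8 members matched GENCODE M21 by symbol.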

Additional observations from a re-analysis of the deposited data

How the results depend on the processing

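All 6 switched isotypes passed as lower under every alternative in which they were tested, with the exception of Ighg3 in the 3-week libraries alone. Ighg3 was lower there too but missed the threshold (log2 fold change -2.74, edgeR adjusted p = 0.0507). Members past the threshold numbered 2, both lower, with a filter of a mean of at least 5 CPM, where only 3 members were tested, and 6 to 7 (6 lower) when 1 library was left out. The replicate block left 6 members lower and 440 genes past the threshold against 572. Same-numbered libraries did not deviate together (correlations 0.085, -0.11 and -0.043 over genes). With 3 libraries per group, this cannot decide whether same-numbered samples shared a litter or batch. The replicate numbers do match in age. With the block, Sdc1 and Atm no longer passed (adjusted p = 0.0662 and 0.0669) and Cd79a did (0.0363).

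Genes past the threshold numbered 151 in the 3-week libraries alone (123 lower, 28 higher) and 298 to 1269 when 1 library was left out (231 to 794 lower, 67 to 475 higher). The lowest count came without control replicate 2 and the highest without Cd4Cre replicate 3. Higher genes numbered 102 and 101 with limma on log2(FPKM + 0.1) and log2(FPKM + 1), against 160. The causes were not tested. Switched isotypes stood at 16.0 per 100 Ighm by deposited FPKM values in the controls, against 14 by counts, and at 13.1 to 14.4 when 1 library was left out. In Cd4Cre the range was 0.134 to 0.184.

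With 44 switched counts in the Cd4Cre group, differences between isotypes there are limited by depth.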
